A study of Rattus norvegicus with 36 samples.

Results

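Of 29516 annotated rat genes, 176 were strongly higher in the pineal gland at night in both intact groups of this study, and 42 of those 176 had a log2 ratio under 1 with norepinephrine (NE) in culture, computed with 0.5 CPM added to both levels. These 42 night genes weakly moved by NE are described here. A gene counted as a night gene if its Control night level was at least 1 CPM (a gene's read-pairs as counts scaled to the library's total on genes) and if log2((night + 0.5)/(day + 0.5)), computed on the median CPM of the 3 libraries per group, was at least 2 in both Control and Sham. It counted as weakly moved if the same log2 ratio of NE over Untreated was under 1. All values of the Control, Sham, NE and Untreated groups are therefore descriptions that chose the genes, and no test was made on them.

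In the intact animal the pineal gland is driven by sympathetic nerves of the superior cervical ganglia. At night these nerves release norepinephrine, which acts on adrenergic receptors of the pinealocyte and raises cyclic AMP. Cyclic AMP in turn changes the transcription of many genes, among them a gene of melatonin synthesis. Dibutyryl cyclic AMP (DBcAMP) is an analog that enters cells and acts downstream of the receptors. A night gene can thus be followed along this path, from the nerve to the receptor and to the second messenger.

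All animals were Sprague-Dawley rats. The in vivo groups were 40-day-old animals of both sexes, killed at ZT7 (day) or ZT19 (night), that had no surgery (Control) or that on postnatal day 5 had sham surgery (Sham), bilateral decentralization of the superior cervical ganglia (DCN, which cuts off their central input and leaves the ganglia in place) or bilateral removal of the ganglia (SCGX). Each library was a pool of glands, with 3 libraries per group and time. For the in vitro groups, glands of adult female rats were kept in culture for 48 h and then left Untreated or treated for 6 h with 1 µM NE or 500 µM DBcAMP, with 3 libraries each. The Pineal-Day, Pineal-Night and Mixed-Tissue pools, the last an equal mixture of RNA from other organs and brain regions, had 1 library each. The surgical groups lack neural drive from early life on, and the cultured glands lack nerves, so neither is an acute loss in the adult gland in place.

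Totals on genes were between 12985072 and 18504240 read-pairs in vivo, between 12556861 and 18524435 in vitro, and between 28836161 and 38574186 for the 3 pools. The library farthest from its group was Sham night 3, with a median absolute log2 distance of 0.18 from the other 2 libraries, against 0.0927 to 0.169 for the other replicated libraries. Without it the same rule gave 44 genes, 40 of them shared. The gene table used here paired 0 of the 29516 identifiers with a symbol, so the genes are given by their annotated length in nucleotides, and 4 of them also by identifier. The pinealocyte and other cell type markers and the lists of clock, cyclic AMP and melatonin genes could not be matched and were not analysed here.

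By the values of the rule, Control night/day log2 ratios of the 42 genes ran from 2.01 to 4.39 with a median of 2.53, and Sham ratios from 2.00 to 3.84 with a median of 2.48. Their NE ratios ran from -0.40 to 0.99 with a median of 0.79, below the limit of 1 that 2.84% of the 13186 genes with at least 1 CPM in Control night reached. The night genes themselves made up 1.33% of those 13186. NE values above Untreated were thus found for 40 of the 42, and 10 had a ratio under 0.5, so the label "weakly moved" fits better than "not moved". The 3 genes closest inside the NE limit had ratios of 0.99, 0.99 and 0.98, and the 3 night genes closest outside had 1.01, 1.02 and 1.02. At the night/day limit the closest inside were 2.01 and 2.01 in Control and 2.00 and 2.03 in Sham, and the closest outside were 1.99 and 1.99 in Control and 1.94 and 1.91 in Sham. The lowest Control night levels were 2.50 and 4.09 CPM, and the limit of 1 CPM removed no gene, since a log2 night/day ratio of 2 with the added 0.5 CPM already requires a higher level. Untreated levels were under 1 CPM for 8 of the 42 genes, and in 4 of these 8 the NE level was more than 2 times the Untreated level although the ratio with the added 0.5 CPM stayed under 1.

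**Figure D1:**
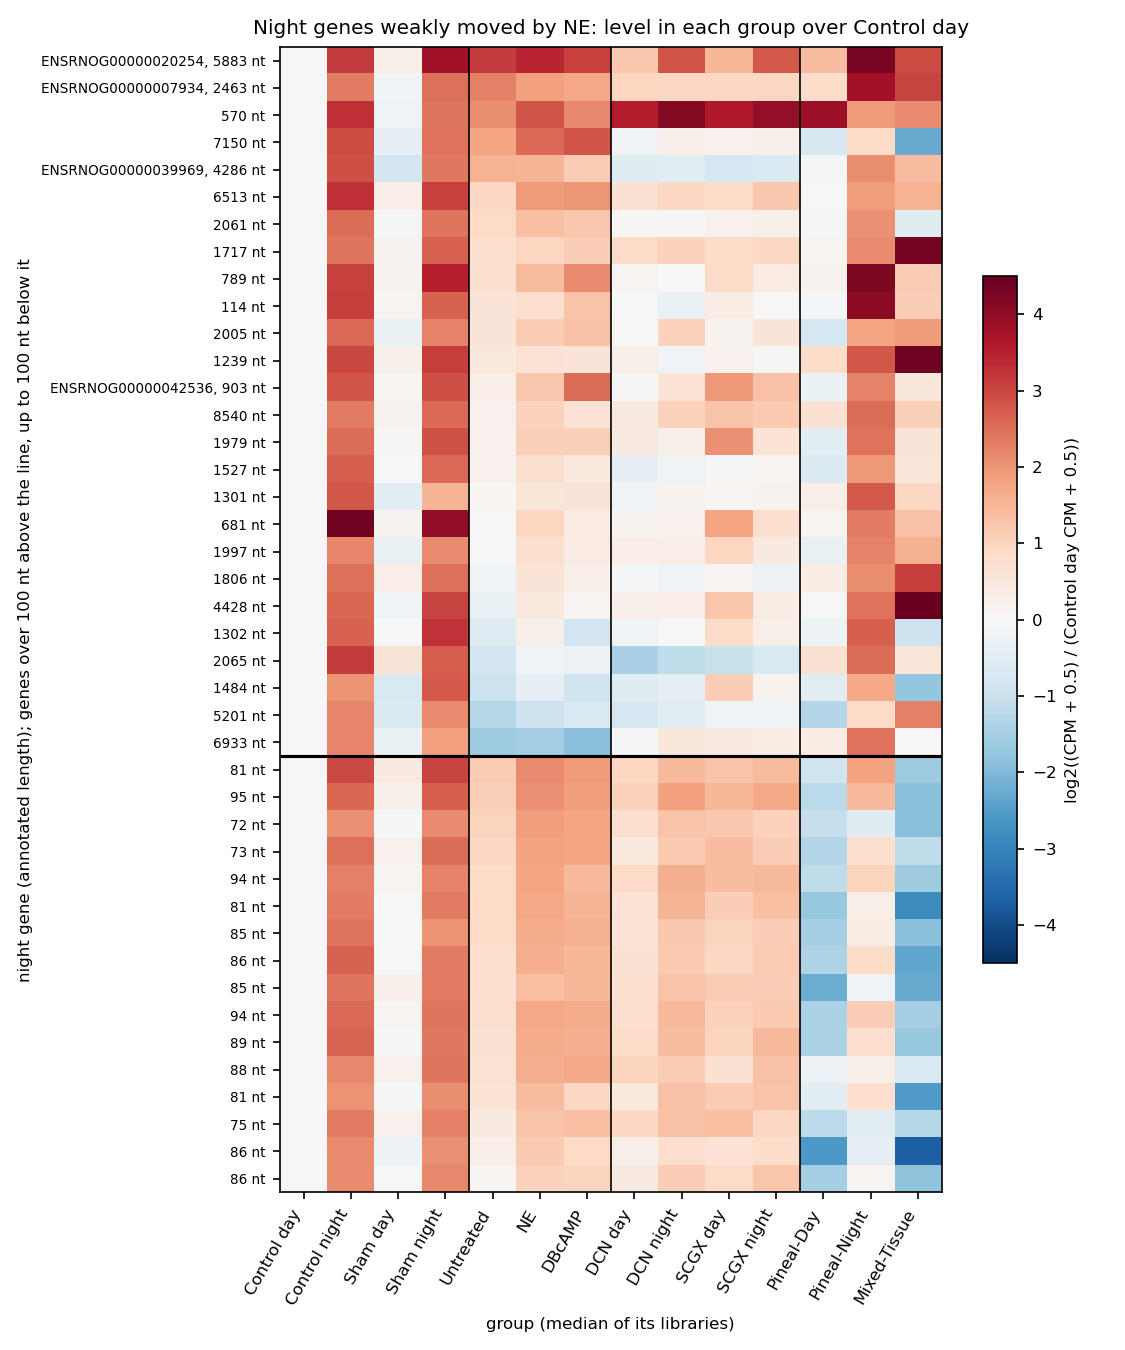
Median CPM of the 42 night genes weakly moved by NE in each group, as log2((CPM + 0.5)/(Control day CPM + 0.5)). Rows are genes with their annotated length, 26 over 100 nt above the line and 16 up to 100 nt below it, each block ordered by the Untreated level, and columns are groups (3 libraries each, and 1 for each of the 3 pools at the right). The short genes form an even block in which Untreated, DCN and SCGX lie above Control day, and the longer genes range from 3.16 above to 1.61 below Control day in untreated culture.

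The genes fell into 2 classes of annotated length, a split chosen after the values were seen and not used by the rule. Of the members, 16 were between 72 and 95 nt long, and the other 26 between 114 and 8540 nt. Genes of up to 100 nt made up 38.1% of the 42 genes, 34.3% of the 134 night genes that passed the NE limit and 1.49% of the 13186 genes with at least 1 CPM in Control night. The short class was thus common among the night genes on both sides of the NE limit. Among the 16 short members, 14 had an NE ratio of 0.8 or over, against 6 of the 26 longer ones, so most of the short genes lay just inside the limit. With the limit at 0.8, 22 genes were left, of which 2 were short. With CPM scaled by TMM, only 4 of the 16 short members still met the rule. The NE ratio on unscaled CPM had a median of -0.12 over the 13186 genes. Fragments in such libraries are longer than these genes, so a read-pair counted for a short gene also covers sequence outside its annotated ends, and transcripts that overlap it cannot be told apart from it.

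In untreated culture the genes stood between the day and the night level of the animal. The median of Untreated over Control day was 0.63 on the log2 scale, against -0.11 over the 13186 genes with at least 1 CPM in Control night. In the 134 night genes past the NE limit it was 0.42. The median of Untreated over Control night was -1.93 in the 42 and -2.36 in those 134. Of the 42, 8 were above Control day by a log2 ratio of at least 1, against 25 of the 134 and 5.82% of the 13186 genes. In 39 of the 42 all 3 Control night libraries were above all 3 Untreated libraries, against 31.5% of the 13186 genes, and 0 of the 42 had an Untreated median above that of Control night. The 3 Untreated libraries were all above the 3 Control day libraries in 22 of the 42 genes and all below them in 5, against 26.9% and 39.3% of all 13186 genes. In the other 134 night genes this held in 79 and 20, so a raised culture level was not particular to the 42. These shares use libraries that chose the genes. The cultured glands came from older females and were sequenced as a separate experiment, so age, sex, culture and experiment cannot be told apart in these values. In all comparisons of whole glands, fewer cells of a type and less RNA per cell cannot be told apart either.

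The highest culture level relative to the animal was that of ENSRNOG00000020254, 5883 nt long. Its Control day libraries held 7.27, 3.68 and 4.12 CPM and its Control night libraries 52.6, 36.4 and 40.8 CPM. The 3 Untreated libraries held 39.6, 41.7 and 40.7 CPM, which is 3.16 above Control day on the log2 scale and inside the range of Control night. With NE it held 44.2, 49.0 and 55.0 CPM and with DBcAMP 45.0, 38.1 and 38.7 CPM, so the untreated gland was already at the night level. The NE libraries lay just above the Untreated ones, by a log2 ratio of 0.27, and the DBcAMP libraries overlapped them.

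The second highest was ENSRNOG00000007934, 2463 nt long, with 3.15, 5.75 and 3.35 CPM in Control day and 22.2, 15.8 and 18.6 CPM in Control night. Untreated glands held 27.5, 16.1 and 17.9 CPM, again within or above the night range. The NE libraries held 13.4, 10.7 and 14.1 CPM, all below the Untreated ones, and gave the lowest NE ratio of the 42 genes at -0.40. ENSRNOG00000039969, 4286 nt long, reached a middle level in culture. It held 10.1, 10.2 and 6.81 CPM in Control day, 98.0, 78.4 and 58.9 CPM in Control night and 31.2, 34.7 and 30.01 CPM in Untreated, and the NE libraries, which overlapped the Untreated ones, held 29.97, 33.9 and 27.9 CPM.

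The gene with the most read-pairs of the 42, 7150 nt long, also started high in culture. Control day gave 308, 194 and 272 CPM, Control night 1468, 2110.4 and 2285 CPM, and Untreated 964, 937 and 828 CPM, which lay above every day library and below every night library. The NE libraries held 1600.1, 1604 and 1428 CPM, a log2 ratio of 0.77 from a raised start, so that the NE level lay within the Control night range at its lower end or just under it. Here a weak NE ratio and a high NE level stood side by side.

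At the other end, 5 genes, all over 100 nt, had an Untreated ratio of -0.5 or lower against Control day, a level that 24.6% of the 13186 genes reached. The lowest, 6933 nt long, held 61.4, 57.8 and 59.6 CPM in Control day and 21.0, 19.2 and 19.2 CPM in Untreated. The NE libraries held 21.3, 19.8 and 15.8 CPM, while Control night had 274, 252 and 272 CPM. Genes of 5201, 1484, 2065 and 1302 nt followed, with ratios of -1.30, -0.95, -0.86 and -0.58. In these 5 genes the medians with and without NE were both below the day level of the animal, apart from the 1302 nt gene, whose NE median of 18.4 CPM was above its Control day median of 15.2 CPM.

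The 570 nt gene was unstable within groups and its place among the 42 is uncertain. It held 0.131, 0 and 9.50 CPM in Control day and 10.6, 0.0662 and 0 CPM in Sham day, against 6.12, 5.66 and 5.03 CPM in Control night. Its DCN and SCGX libraries held between 1.33 and 12.2 CPM. It was also the only one of the 42 that was lower in Pineal-Night than in Pineal-Day, with 1.88 against 8.63 CPM.

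DBcAMP, which the rule did not use, raised most of these genes, but weakly on the measure used for NE. The log2 ratio of DBcAMP over Untreated on the median CPM had a median of 0.62 in the 42, against -0.17 over the 13186 genes. It was 1 or over in 5 of the 42, against 116 of the 134 night genes past the NE limit and 495 of the 13186 genes. Of the 42, 41 passed the filter of a mean normalized count of at least 5, 28 rose and 2 fell at an adjusted p-value under 0.05 in edgeR's quasi-likelihood test, and 11 did not pass. Over all 15196 genes tested, 19.4% were called higher and 22.5% lower, so the share of the 42 that rose was well over the background and the share that fell well under it. The fitted log2 fold changes had a median of 0.90, against -0.03 over all genes tested. The comparison shares its Untreated libraries with the NE ratio of the rule, so the 2 responses are not independent. The DBcAMP libraries lay all above the Untreated ones in 24 of the 42 and all below in 4, against 16.9% and 43.1% of the 13186 genes. Among the 134 night genes past the NE limit, 133 were tested and 133 rose. Scaling by library size alone moved the median log2 fold change over all genes to -0.17 and the calls over all genes from 2952 higher and 3426 lower to 2142 and 5169, and among the 42 it left 24 higher and 3 lower.

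The DBcAMP response was mostly of the size of the NE response. The log2 ratio of DBcAMP over NE on the median CPM had a median of -0.12 in the 42 genes, -0.15 in the other 134 night genes and -0.06 over the 13186 genes. The DBcAMP libraries lay all above the NE libraries in 4 of the 42 genes and all below in 11, against 9.46% and 19.5% of all genes. These values use NE, so they are given as a description.

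**Figure D2:**
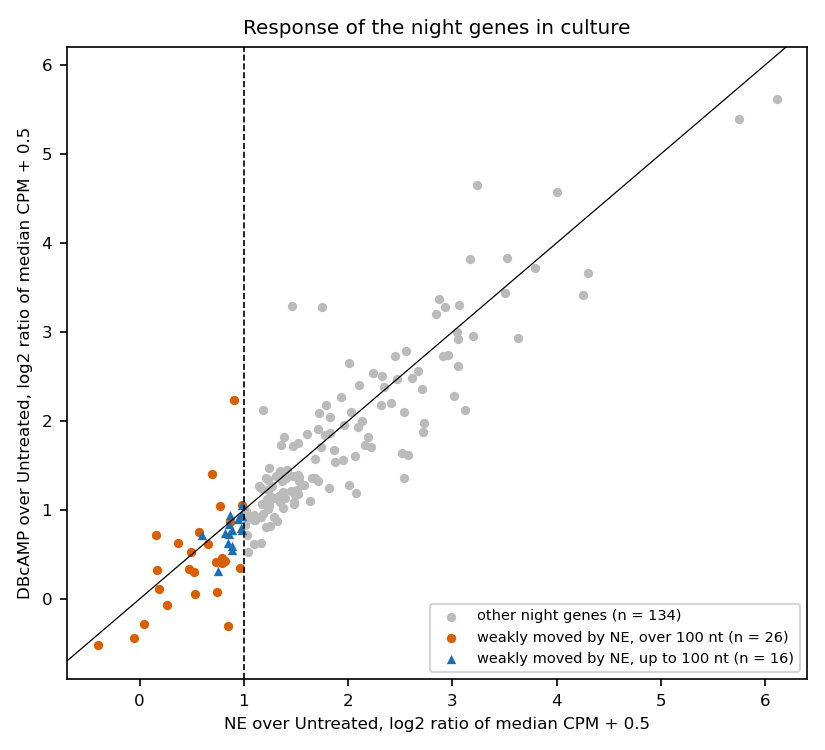
Log2 ratio of DBcAMP over Untreated (vertical) against NE over Untreated (horizontal), on group medians of CPM + 0.5, for all 176 night genes. The dashed line is the NE limit of 1 and the solid line marks equal responses, and 1 gene, 903 nt long, stands far above the solid line left of the limit with 2.24 against 0.91.

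The largest DBcAMP change was in ENSRNOG00000042536, 903 nt long. Its Untreated libraries held 8.39, 7.78 and 7.99 CPM, its NE libraries 14.7, 15.4 and 16.0 CPM and its DBcAMP libraries 45.5, 39.6 and 39.6 CPM. The 3 groups did not overlap, and the DBcAMP level came close to the 49.2, 50.4 and 46.1 CPM of Control night. The log2 fold change over Untreated was 2.50 ± 0.10 (SE, n = 3 and 3, edgeR's quasi-likelihood test, adjusted p = 1.54e-09). It stayed called in all 13 refits, between 2.37 and 2.55.

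Next by size among those that rose were genes of 789 and 114 nt, with log2 fold changes of 2.07 ± 0.38 and 1.53 ± 0.38 (SE) at adjusted p-values of 0.000764 and 0.00552 in edgeR's test. Both held few read-pairs in culture, with Untreated medians of 0.54 CPM each. Their levels were also alike across the other groups, for example with 11.1 and 10.99 CPM in Pineal-Night, and the cause was not tested. The 7150 nt gene rose to 1937, 1888 and 2182 CPM, all above the NE libraries, with a log2 fold change of 1.28 ± 0.08 and an adjusted p of 8.3e-08 by edgeR. A gene of 6513 nt rose by 1.24 ± 0.10 with an adjusted p of 1.07e-06 by edgeR.

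Both genes called lower were among those already high in untreated culture. The 6933 and 1302 nt genes, below Control day in untreated culture, also had all DBcAMP libraries below the Untreated ones. They were not called (adjusted p = 0.0569 and 0.366 by edgeR). ENSRNOG00000007934 held 11.8, 12.3 and 13.6 CPM with DBcAMP, all below the Untreated libraries, and fell by 0.56 on the log2 scale (SE 0.17, n = 3 and 3, edgeR's quasi-likelihood test, adjusted p = 0.0194). Untreated 1, at 27.5 CPM, carried part of this difference, and without that library the fitted change was -0.31 with an adjusted p of 0.0901 by edgeR, the highest in a range over the alternatives from 0.000549639. Without DBcAMP replicate 1 it was -0.50 and also not called. ENSRNOG00000039969 held 23.7, 22.8 and 21.9 CPM with DBcAMP, again with no overlap, and fell by 0.35 on the log2 scale (SE 0.10, n = 3 and 3, edgeR's quasi-likelihood test, adjusted p = 0.0106). Without Untreated replicate 2 it was -0.28 with an adjusted p of 0.0567 by edgeR, where the lowest of the alternatives was 0.00115. ENSRNOG00000020254 had a log2 fold change of 0.14 ± 0.09 with DBcAMP and did not pass (adjusted p = 0.235 by edgeR).

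Of the 16 short members, all were tested with DBcAMP and 15 rose, by 0.72 to 1.36 on the log2 scale. The 1 that did not pass, among 3 members of 81 nt, had a fitted change of 0.41 ± 0.16 with an adjusted p of 0.0547 by edgeR. Of the 25 longer members tested, 13 rose and 2 fell. The DBcAMP libraries lay all above the Untreated ones in 14 of the 16 short members. The same held in 46 of 46 short night genes past the NE limit and in 49 of 134 short genes that were not night genes. A rise with DBcAMP was thus not particular to the short members. The short genes also moved together across libraries. Over the 9 culture libraries the median Pearson r of their 120 pairs was 0.88, with all 120 above 0, against 0.37 over the 325 pairs of longer genes, of which 241 were above 0. These correlations are a description across libraries that include the treatment difference. As an example, the most counted of 3 members of 86 nt held 14.1, 15.7 and 15.3 CPM in Untreated, 28.6, 27.5 and 29.2 CPM with NE and 23.3, 23.6 and 20.5 CPM with DBcAMP. Neither agent brought it to its Control night values of 51.8, 55.3 and 56.1 CPM.

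With either agent the level stayed below Control night in most of the 42 genes. The median of NE over Control night was -1.24 on the log2 scale and that of DBcAMP over Control night -1.19, against -0.76 and -0.96 in the 134 night genes past the NE limit. All 3 Control night libraries were above all 3 NE libraries in 38 of the 42 genes and above all 3 DBcAMP libraries in 38 of them, against 38.8% and 43.7% of all 13186 genes. These shares use the libraries that chose the genes.

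After surgery the night level of these genes was below that of Sham, whose libraries the rule used, so these values are a description. Relative to Sham night, the median was -1.51 in DCN night and -1.56 in SCGX night on the log2 scale, and 41 of the 42 were at least 0.5 below Sham night in each, the exception being the unstable 570 nt gene, against 1217 and 1116 of the 13186 genes. At day the medians relative to Sham day were 0.38 in DCN and 0.90 in SCGX, against 0.06 and -0.02 over the 13186 genes. In the 134 night genes past the NE limit, DCN and SCGX medians were -2.29 and -2.02 at night and 0.30 and 0.87 at day. Neither the loss at night nor the raised day level was thus particular to the 42. The loss at night was smaller in the short class, with a median of -0.96 in DCN and -1.11 in SCGX, than in the longer genes, with -2.48 and -2.23. The other 134 night genes had the same order, with -1.34 and -1.40 in short and -2.91 and -2.69 in longer genes. The difference between the classes was not tested. Relative to Control day the medians of the 3 libraries ran from 0.42 to 0.45 in DCN day, from 0.89 to 0.99 in DCN night, from 0.91 to 1.12 in SCGX day and from 0.82 to 0.94 in SCGX night, while Control night libraries lay between 2.38 and 2.60.

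In DCN 0 of the 38 genes tested were called at night against day by edgeR's quasi-likelihood test, and 0% of all 15928 genes tested were called higher. At an unadjusted p under 0.05 edgeR gave 18 of the 38 as higher and 0 as lower, with 1431 of the 15928 genes in either direction. DESeq2 called 5 of them higher at an adjusted p under 0.05 and 69 genes higher over the whole table. The fitted log2 fold changes had a median of 0.50 in the 42, with 34 of 38 above 0, against -0.01 over all genes. The spread between replicates was larger in DCN than in SCGX, with common coefficients of variation of 20.1% and 9.23%, and in simulated counts with these spreads 70% and 97% of 2-fold changes were recovered. Small night/day differences were thus harder to detect in DCN. The simulation changed 200 genes, all of them well counted, so its rates do not cover members with few read-pairs.

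In DCN all 16 short members had a fitted value above 0, between 0.35 and 0.81, and 14 of them had an unadjusted p under 0.05, none of which passed adjustment. Over all 15928 genes tested, 1431 had an unadjusted p under 0.05 in either direction by edgeR. The difference between the short and the longer members was not tested. Their 3 DCN night libraries were all above the 3 DCN day libraries in 15 of 16, against 4 of 26 longer members and 6.51% of all 13186 genes. The reverse order was found in 1 of the 42, against 9.45%. Among the short night genes past the NE limit the same held in 34 of 46, and in short genes that were not night genes in 26 of 134. The gene of 94 nt closest inside the NE limit, for example, held 7.99, 8.53 and 9.05 CPM in DCN day and 14.4, 12.8 and 15.9 CPM in DCN night. In SCGX it held 10.48, 12.3 and 10.04 CPM at day and 11.8, 13.6 and 11.4 CPM at night, which overlap. The 16 short genes were grouped by length after their values were seen, and across the 12 DCN and SCGX libraries the median r of their pairs was 0.72, so they do not count as 16 independent observations.

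Of the longer members, 4 had an unadjusted p under 0.05 in DCN, and the pair with the lowest values is given here. ENSRNOG00000020254 held 10.1, 13.0 and 10.3 CPM in DCN day and 38.1, 32.2 and 27.3 CPM in DCN night, with no overlap. The fitted log2 fold change was 1.58 ± 0.15 (SE, n = 3 and 3), the lowest p-value of all 15928 genes tested, with an adjusted p of 0.118 by edgeR. Over the alternatives the adjusted p ran from 1.25e-13 with DESeq2 to 0.407 without DCN day replicate 2, and it was under 0.05 in 3 settings, which were DESeq2, no count filter and all in vivo libraries in 1 model. An 8540 nt gene held 92.6, 94.3 and 108 CPM in DCN day and 155, 148 and 142 CPM in DCN night, with a log2 fold change of 0.62 ± 0.09 and an adjusted p of 0.232 by edgeR.

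In SCGX 1 of the 39 genes tested was higher at night than at day and 2 were lower, against 1.02% and 0.83% of all 15551 genes tested by edgeR. Of the night genes past the NE limit, 130 were tested, 1 was higher and 10 were lower. At an unadjusted p under 0.05, 1 of the 39 was higher and 8 were lower, with 2821 of the 15551 genes in either direction. The 3 night libraries were all above the 3 day libraries in 5 of the 42 and all below in 7, against 16.5% and 8.18% of the 13186 genes. In the other 134 night genes this held in 11 and 26, so a lower night level was not particular to the 42. ENSRNOG00000020254 was the only gene of the 42 called higher. It held 14.5, 12.1 and 12.6 CPM at day and 30.6, 37.3 and 25.2 CPM at night, with a log2 fold change of 1.21 ± 0.15 (SE, n = 3 and 3, edgeR's quasi-likelihood test, adjusted p = 0.00898). It passed 0.05 in all 13 refits, with adjusted p-values from 4.19e-11 to 0.0439. Its day level was above that of Sham day, which was 4.99, 3.71 and 5.81 CPM, and its night level below that of Sham night, which was 46.6, 69.9 and 62.3 CPM. Between SCGX and DCN it did not pass at night (log2 fold change -0.06 ± 0.16, adjusted p = 0.999693 by edgeR) or at day (0.31 ± 0.13, adjusted p = 0.259 by edgeR).

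The genes of the 42 called lower at night in SCGX were 1979 and 1997 nt long. The first held 8.45, 4.49 and 8.46 CPM at day and 2.77, 2.22 and 2.90 CPM at night, with a log2 fold change of -1.49 ± 0.27 and an adjusted p of 0.0331 by edgeR. The second held 42.1, 39.7 and 46.8 CPM at day and 28.2, 32.1 and 22.0 CPM at night, with -0.68 ± 0.13 and an adjusted p of 0.0432 by edgeR. Both were thus inverted relative to intact glands, in which night was the higher time. The count of 2 ran from 0 to 3 when 1 library was left out, and was 0 without SCGX day replicate 1, SCGX day replicate 3, SCGX night replicate 1 or SCGX night replicate 3, and 1 without SCGX night replicate 2. DESeq2 called 4 of the 39 lower, with 268 of 15543 genes over the whole table.

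**Figure D3:**
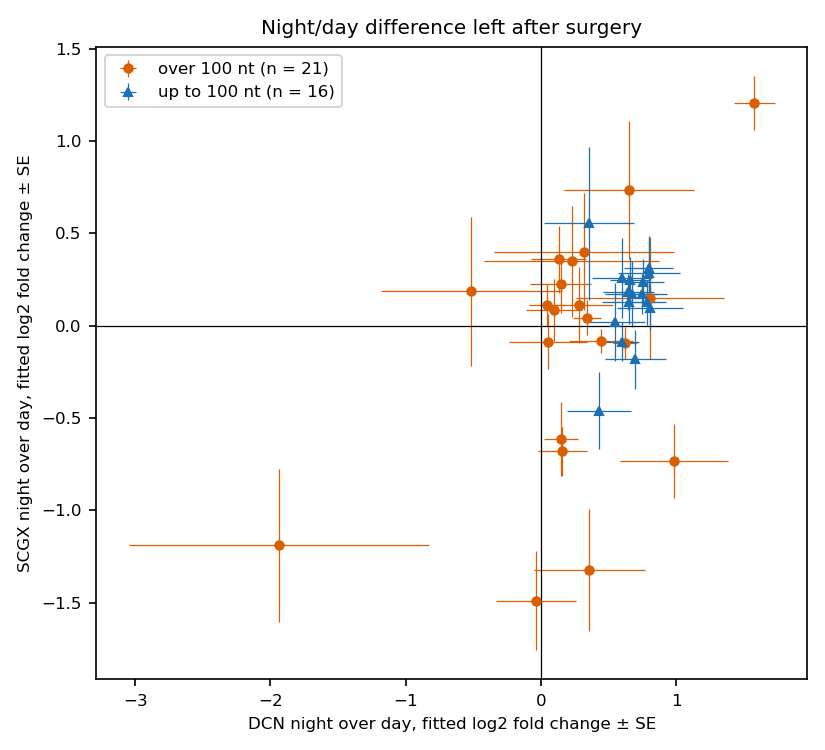
Fitted night over day log2 fold changes in SCGX (vertical) against DCN (horizontal) with standard errors, for the 37 of the 42 genes tested in both. The 16 short genes lie between 0.35 and 0.81 in DCN and between -0.46 and 0.55 in SCGX, and ENSRNOG00000020254 lies apart at 1.58 in DCN and 1.21 in SCGX.

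The DCN and SCGX groups were compared at each time. At day, 5 of the 40 genes tested were higher in SCGX than in DCN and 0 were lower, against 0.591% and 0.17% of all 15902 genes tested by edgeR. At night, 0 of 38 were called by edgeR, and 0% of 15579 genes. At an unadjusted p under 0.05 edgeR gave 4 of the 38 higher in SCGX night and 0 lower, with 592 of the 15579 genes in either direction. DESeq2 called 0 of the 38, with 8 higher and 1 lower of 15566 genes. The SCGX night libraries lay all above the DCN night libraries in 5 of the 42 genes and all below in 0, against 4.12% and 5.13% of the 13186 genes. Whether the day and night differences differ from each other was not tested. Without overlap of libraries, SCGX day was above DCN day in 19 of the 42 genes and below in 1, against 8.37% and 21.8% of the 13186 genes. The same order was found in 79 of the 134 other night genes, so it was not particular to those weakly moved by NE.

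ENSRNOG00000042536 had the lowest adjusted p of the 5. It held 7.05, 6.63 and 6.66 CPM in DCN day and 26.6, 21.5 and 32.99 CPM in SCGX day, which is also above the 7.99, 6.88 and 5.53 CPM of Sham day. The log2 fold change of SCGX over DCN at day was 2.07 ± 0.17 (SE, n = 3 and 3, edgeR's quasi-likelihood test, adjusted p = 0.0189). Of the 15902 genes tested it had the third lowest p-value, and without DCN day replicate 2 or SCGX day replicate 1 it was not called, with adjusted p-values of up to 0.0912 at changes of 2.04 and 2.08. At night it held 10.2, 7.18 and 21.9 CPM in DCN and 16.9, 20.6 and 12.5 CPM in SCGX, which overlap.

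The other 4 genes higher in SCGX day were 8540, 681, 1997 and 1979 nt long. The 8540 nt gene held 92.6, 94.3 and 108 CPM in DCN day and 175, 168 and 179.6 CPM in SCGX day, with a log2 fold change of 0.90 ± 0.08 and an adjusted p of 0.0249 by edgeR. The 1979 nt gene held 2.33, 2.30 and 1.87 CPM in DCN day against the 8.45, 4.49 and 8.46 CPM of SCGX day given above, with 1.79 ± 0.29 and an adjusted p of 0.0461 by edgeR. The 1997 nt gene held 30.6, 26.1 and 23.5 CPM in DCN day against the SCGX day values given above, with 0.76 ± 0.11 and an adjusted p of 0.0390 by edgeR. The 681 nt gene had 1, 2 and 4 read-pairs in DCN day and 19, 21 and 20 in SCGX day. It passed the count filter only through SCGX day, so no fold change is given for it, and 4 of the 5 calls do not rest on such a count. DESeq2 called 7 of the 40 tested higher in SCGX day, with 485 of 15789 genes over the whole table. The count of 5 ran from 0 to 6 when 1 library was left out. It was 0 without DCN day replicate 2 or SCGX day replicate 1, 1 without SCGX day replicate 3 and 3 without DCN day replicate 3.

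**Figure D4:**
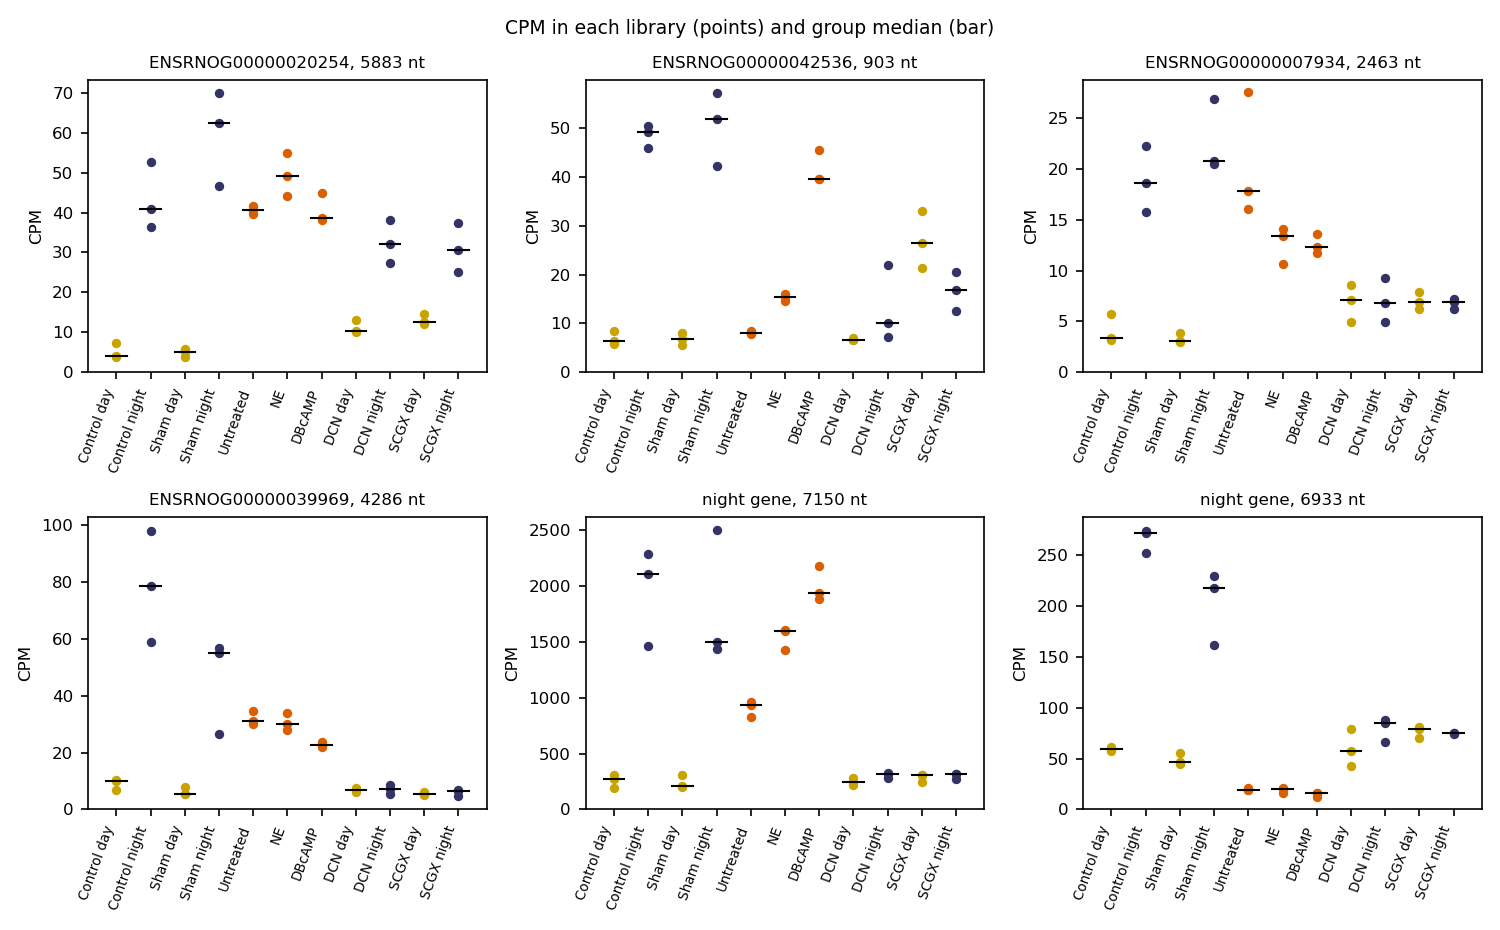
CPM in each library (points) and group median (bar) for the 4 genes given by identifier and for the 7150 nt and 6933 nt genes, each panel with its own linear axis from 0. Dark points are night groups, yellow points day groups and orange points cultured glands. The panels show a gene at the night level in untreated culture (5883 nt) and a gene below the day level in all cultures (6933 nt). The 903 nt panel shows a gene raised by DBcAMP and higher in SCGX day than in DCN day.

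The 3 pools are libraries that the rule did not use. Pineal-Night was above Pineal-Day in 41 of the 42 genes, by a log2 ratio of at least 1 in 38 and at least 2 in 28, against 33.4%, 3.93% and 1.29% of the 13186 genes. The median ratio was 2.17, and it was 2.62 in the 134 night genes past the NE limit. With 1 library each these values have no replicate check. Pineal-Night was above Mixed-Tissue by a log2 ratio of at least 2 in 18 of the 42 genes, against 4.55% of all genes, and below it in 7. Those below included genes of 4428 nt, with 5.14 CPM in Pineal-Night and 53.2 CPM in Mixed-Tissue, and of 1717 nt, with 1.96 and 10.4 CPM. The short members were low in the pools, with a median of 1.35 below Control day in Pineal-Day and 1.84 below it in Mixed-Tissue on the log2 scale, while the longer members in Pineal-Day were at the Control day level with a median of 0.00. The level of the short genes thus differed between experiments as well as between conditions, and the cause was not tested.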

How the data were processed

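The authors prepared stranded, ribosome-depleted total RNA, aligned the read-pairs with RNA-STAR to rn4 and counted those on the exons of each annotated gene. They deposited for each of the 36 libraries the whole, unnormalized read-pair counts of 29516 genes, which were analysed here. The deposited RPKM values are those counts divided by gene length and library total, and were used only to recover gene lengths. Per the labels, the processing used CASAVA 1.8.2, STAR 2.3.1y, HTSeq, R 3.0.2 and DESeq2 1.2.10.

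Groups were taken from the labels. Group levels are medians of CPM, and log2 ratios carry a pseudocount of 0.5 CPM. Comparisons were fitted in R 4.3.3 with edgeR 4.0.16 (TMM, quasi-likelihood test, mean normalized count of at least 5, Benjamini-Hochberg adjustment over all genes tested) on the 6 libraries compared. Calls used an adjusted p-value under 0.05. DESeq2 1.42.0, other scalings, filters and thresholds, 1 model per experiment, a replicate block and leaving out each library were the alternatives. Figures and tables used Python 3.11.15. The fits were tested on simulated counts. Replicate libraries differed beyond sampling noise (chi-square per degree of freedom between 6.17 and 44.4). They are pools of animals or glands, so p-values measure the spread between pools.

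The genes, lists and rules were chosen with earlier results of these data known. The naming rule covered the highest night levels, the most extreme responses, the genes called and those next to each limit. Since 0 identifiers could be paired with a symbol, it was applied by length, and 4 identifiers were chosen from it after their values were seen, namely ENSRNOG00000042536, higher with DBcAMP, ENSRNOG00000020254, higher at night in SCGX, and ENSRNOG00000007934 and ENSRNOG00000039969, lower with DBcAMP. The planned gene lists and cell type markers could not be used.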

Additional observations from a re-analysis of the deposited data

Results flagged for a closer look

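In 2 genes the DCN and SCGX groups separated in opposite directions, with every night library above every day library in DCN and every night library below every day library in SCGX. These are 4.76% of the 42, against 4.48% of the 134 night genes past the NE limit and 0.356% of the 13186 genes with at least 1 CPM in Control night. ENSRNOG00000042536 had a night/day log2 ratio of 0.58 in DCN and -0.63 in SCGX. Neither passed in edgeR's quasi-likelihood test (fitted log2 fold changes 0.99 ± 0.40, adjusted p = 0.541, and -0.73 ± 0.20, adjusted p = 0.102, SE, n = 3 and 3). A gene of 75 nt had 0.38 in DCN and -0.41 in SCGX, at levels of 2.07 to 2.94 CPM in the group medians. The difference between the groups was not tested.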

How the results depend on the processing

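All values rest on 3 libraries per group. In DCN a fitted log2 fold change of 1.58 in ENSRNOG00000020254 was not called, so differences under 2-fold were hard to detect there. The rule gave 22 genes with the NE limit at 0.8, and 36 to 47 when 1 library was left out. With CPM scaled by TMM it gave 34, of which 27 were shared, 4 of them short. With a pseudocount of 0.1 it gave 50, of which 31 were shared, 9 of them short. Means in place of medians gave 39, of which 31 were shared, 8 of them short. Under TMM scaling most of the 16 short genes thus left the set. At an adjusted p-value under 0.001, 15 genes were higher and 0 lower with DBcAMP, 0 were called in either direction in SCGX, and 0 differed between SCGX and DCN at day. Over all genes tested, 1462 of 15196 were higher and 1076 lower with DBcAMP at that limit. In SCGX 2 of 15551 were higher and 0 lower, and at day 0 of 15902 differed between SCGX and DCN. Leaving out 1 library gave 24 to 26 higher and 1 to 3 lower with DBcAMP, 0 to 3 lower at night in SCGX and 0 to 6 that differed at day. Over all genes tested these ran from 2520 to 2893 and from 2760 to 3063 with DBcAMP. They ran from 31 to 149 lower at night in SCGX and from 1 to 341 higher in SCGX day. DESeq2 called 5 higher at night in DCN and 4 lower at night in SCGX, against 69 and 268 over all genes tested. Without a count filter these were 1 and 5, against 4 and 292. With all in vivo libraries in 1 model they were 1 and 1, against 16 and 15. Scaling by library size alone left 3 that differed at day, against 67 higher and 58 lower of 15906. With TMM-scaled CPM, the median was -1.69 for DCN night and -1.72 for SCGX night over Sham night, 0.33 for DCN day over Sham day and 2.38 for Pineal-Night over Pineal-Day. The cause of these changes was not tested. Of the recomputed counts and medians, 99 stayed within 1.5 times the count or 1 SD of the value reported and 30 did not.

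The replicate numbers did not pair the libraries. Correlations of same-numbered deviations ran from -0.28 to 0.25, and in no comparison did all 3 exceed 0.1 or all libraries correlate best with their own number. With the replicate block, 26 genes were higher and 2 lower with DBcAMP, 1 was higher and 1 lower at night in SCGX, 5 differed at day and 0 in DCN or between SCGX and DCN at night. Over all genes tested the block gave 2918 higher and 3366 lower with DBcAMP and 95 and 86 in SCGX. At day it gave 126 and 50, and in DCN and at night 0.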
